A study of Mus musculus with 16 samples.

Results

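In the ileum of 16 mice, 9 genes that build the epithelial tight junction were followed, out of 41740 genes listed in the deposited tables. They were chosen by name, as 5 claudins (Cldn2, Cldn3, Cldn4, Cldn7 and Cldn15), occludin (Ocln), the junctional adhesion molecule JAM-A (F11r) and the cytoplasmic scaffold genes for ZO-1 (Tjp1) and cingulin (Cgn). The ileal whole wall of male STAM mice was analyzed at 20 weeks of age. STAM is a model of diabetes with steatohepatitis, made by streptozotocin at an age of 2 days and high-fat feeding that starts at 4 weeks, and all 16 mice had both. The Control-STAM-nonINS mice (n = 4) were Villin-Cre-negative and carried the floxed insulin receptor gene. They received no insulin, and the paper gives normal saline as the treatment of control mice. The Control-STAM-INS mice (n = 6) had the same genotype and were treated with insulin degludec from 6 weeks of age at up to 12 U/kg. The ieIRKO-STAM-INS mice (n = 6) were Villin-Cre-positive with the floxed receptor and were treated with the same insulin. Villin-Cre acts in the intestinal epithelium, so the other cells of the wall keep the receptor gene. Knockout mice without insulin and mice without diabetes were not analysed here.

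Tight junctions seal the space between neighboring epithelial cells near the lumen and decide which ions and solutes pass between the cells. Claudins span the membrane and form either seals or channels. Claudin-2 and claudin-15 are channels for cations and water, and in the small intestine they return the sodium that drives nutrient uptake, whereas claudin-3 and claudin-4 are counted among the sealing claudins and claudin-7 also lies along the basolateral membrane. Occludin and JAM-A are further membrane proteins of the junction, and ZO-1 and cingulin tie it to the actin cytoskeleton from inside the cell.

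The study's own primers for the junction target Ocln and Tjp1, so their sites show which parts of these 2 genes its PCR reads, beside the counts over the whole gene given here. The 4 primers are written 5′ to 3′, and capitals mark bases that differ from the mouse reference.
Ocln forward: actcctccaatggACaagtg
Ocln site of the forward primer: actcctccaatggCAaagtg
Ocln reverse: ccccacctgtcgtgtagtct
Tjp1 forward: ccacctctgtccagctcttc
Tjp1 reverse: caccggagtgatggttttct
The Ocln forward primer matched GRCm38 at chr13:100515074-100515093 with 2 differences, A14C and C15A, counted from 1 at its 5′ end with the primer's base first. This site lies in coding sequence of exon 5 of 9. The reverse primer matched without a difference at chr13:100511446-100511465, in coding sequence of exon 6. Both Tjp1 primers matched without a difference, at chr7:65306405-65306424 in exon 24 of 28 and at chr7:65303025-65303044 in exon 25, both in coding sequence. Both genes lie on the minus strand. Each pair spans an exon boundary and gives a product of 249 bases on the transcript used for these positions. In the annotation both Tjp1 sites are held by 3 of 7 transcripts of the gene, the Ocln forward site by 5 of 5 and the Ocln reverse site by 4 of 5.

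Promoter sequences are shown for the claudin with the largest difference in relation to its error, Cldn2, and for the 3 members whose levels were most closely correlated from mouse to mouse, Cldn4, Cldn7 and F11r. They are RefSeq sequences of GRCm38.p6 from 250 bases before to 50 after the transcription start, written along the gene's own strand. Capitals mark 3 short motifs on either strand, the CDX core (TTTAT), the GC box (GGGCGG) and the Snail E-box (CAGGTG).
Cldn2 (chrX:139800558-139800857, plus strand): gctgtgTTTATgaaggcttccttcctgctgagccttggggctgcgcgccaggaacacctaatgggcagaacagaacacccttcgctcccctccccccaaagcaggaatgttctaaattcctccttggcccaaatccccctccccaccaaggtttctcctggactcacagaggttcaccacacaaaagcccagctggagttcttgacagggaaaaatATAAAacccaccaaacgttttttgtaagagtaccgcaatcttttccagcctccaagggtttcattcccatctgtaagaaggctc
Cldn4 (chr5:134946885-134947184, minus strand): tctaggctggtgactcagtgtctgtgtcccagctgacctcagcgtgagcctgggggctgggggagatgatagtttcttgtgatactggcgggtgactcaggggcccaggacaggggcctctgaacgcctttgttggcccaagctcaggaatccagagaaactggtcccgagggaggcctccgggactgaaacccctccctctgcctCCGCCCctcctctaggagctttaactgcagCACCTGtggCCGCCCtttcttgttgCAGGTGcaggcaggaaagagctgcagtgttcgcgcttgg
Cldn7 (chr11:69964529-69964828, plus strand): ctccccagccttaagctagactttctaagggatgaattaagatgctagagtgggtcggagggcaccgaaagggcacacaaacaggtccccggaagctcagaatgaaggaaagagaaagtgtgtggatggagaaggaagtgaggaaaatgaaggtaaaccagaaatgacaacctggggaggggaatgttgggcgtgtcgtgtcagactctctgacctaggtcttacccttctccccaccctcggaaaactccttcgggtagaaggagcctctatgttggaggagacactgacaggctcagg
F11r (chr1:171437311-171437610, plus strand): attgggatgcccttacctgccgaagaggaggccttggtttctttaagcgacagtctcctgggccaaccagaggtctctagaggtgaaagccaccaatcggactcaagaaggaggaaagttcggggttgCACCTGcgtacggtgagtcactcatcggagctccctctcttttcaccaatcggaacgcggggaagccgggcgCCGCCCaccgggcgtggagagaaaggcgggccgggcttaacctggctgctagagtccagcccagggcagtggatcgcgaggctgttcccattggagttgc
Among 32851 mouse promoters of this length, 40.0% held the CDX core, 35.7% the GC box and 20.2% the Snail E-box. Cldn2 had the CDX core at -244 and, on the other strand, at -34, where it overlaps a TATA-box-like run, and neither of the other motifs. Cldn4 had the GC box at -44 and -5 and the E-box at -14 and 12. F11r had one GC box at -50 and one E-box at -122. The Cldn7 window held none of the 3 motifs. A match is a description of sequence only.

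In the GENCODE annotation of GRCm38 all 9 members are protein-coding genes. The claudins lie at chrX:139800828-139811386 (Cldn2), chr5:136966616-136975858 (Cldn15), chr5:134986214-134987472 (Cldn3), chr5:134945119-134946934 (Cldn4) and chr11:69964779-69967885 (Cldn7). Cldn3 and Cldn4 each have a single exon. The others lie at chr13:100496507-100552718 (Ocln), chr1:171437535-171464603 (F11r), chr7:65296165-65527781 (Tjp1) and chr3:94760069-94786492 (Cgn).

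Between 13288018 and 22215382 reads were counted per library, and each member had between 1102 and 24835 reads. Levels are given as CPM, the counts scaled to a common library size by TMM normalization. All 9 members passed the filter on low counts, as did 15267 genes in all. The 10 epithelial markers, such as Epcam and Vil1, and the ileal genes Fabp6 and Slc10a2 were read in every library. Control-STAM-nonINS replicate 4 stood apart with a summed epithelial marker level of 10178 CPM against 15993 to 17251 in the other 3 mice of its group. ieIRKO-STAM-INS replicate 5 had the lowest such sum of its group at 12573 CPM, and its villus enterocyte markers summed to 6363 CPM against 17677 or more in the other 5. B cell markers summed to 401 and 238 CPM in ieIRKO-STAM-INS replicates 2 and 3 and to 18.3 to 53.0 CPM in the other 14 libraries. The targeted gene, Insr, stood at 112.4, 104.1, 88.3 and 115.8 CPM in Control-STAM-nonINS, at 49.9 to 76.1 (median 63.7) in Control-STAM-INS and at 57.5 to 90.4 (median 60.5) in the libraries labelled ieIRKO-STAM-INS. Its log2 fold change between the last 2 groups was 0.10 ± 0.13 (SE; edgeR adjusted p = 0.805), and group names below are those of the labels. Reads were summed over the whole gene and the whole wall, so the loss of a floxed part in the epithelium cannot be read from these counts and they do not check the labels.

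Compared per kilobase of exon (RPKM after TMM), the members covered a wide range, and Cldn7 was the most abundant in every group. In Control-STAM-INS, mean Cldn7 was 515 ± 58.7 RPKM (SD, n = 6) and mean Cldn3 was 357 ± 52.1 RPKM, and the lowest Cldn7 value lay above the highest Cldn3 value. Cldn15 followed at 121 ± 16.2 RPKM, F11r at 106 ± 9.54, Cldn4 at 68.6 ± 26.1 and Cldn2 at 61.3 ± 9.33 RPKM. These 4 formed a run in which each overlapped its neighbor. Cgn at 42.0 ± 4.00 RPKM, Ocln at 29.0 ± 2.16 and Tjp1 at 13.5 ± 1.49 RPKM came last, each clear of the gene above it in this group. The order was the same in Control-STAM-nonINS, where Cldn7 and Cldn3 overlapped, as did Cgn and Ocln. In ieIRKO-STAM-INS, Cldn2 (64.3 ± 13.2 RPKM) and Cldn4 (59.4 ± 21.02) changed places within overlapping ranges.

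**Figure D1:**
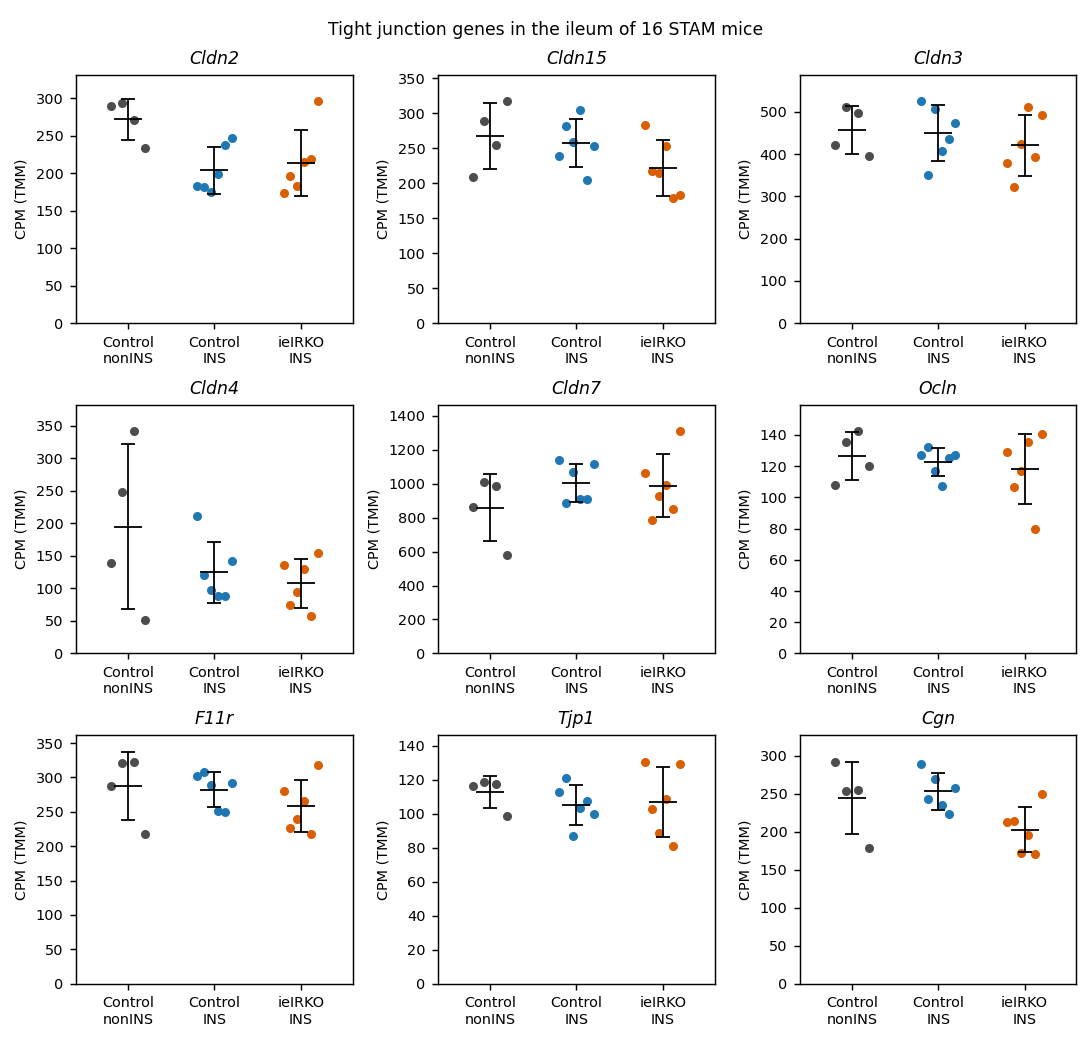
Level of each tight junction gene, in CPM after TMM on a linear axis starting at 0, in the 3 groups (n = 4, 6 and 6 mice). Points are mice and bars are mean ± SD. For Cldn2, 4 of 6 Control-STAM-INS points lie below every Control-STAM-nonINS point. For Cgn, 5 of 6 ieIRKO-STAM-INS points lie below every Control-STAM-INS point, and Cldn4 has the widest scatter.

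The first comparison, Control-STAM-INS against Control-STAM-nonINS, asks how insulin treatment of diabetic mice with an intact receptor changed the junction genes. None of the 9 members passed an adjusted p of 0.05, whereas 10.5% of all 15267 genes did (edgeR's quasi-likelihood test, Benjamini-Hochberg). At an unadjusted p under 0.05 there was 1 member, Cldn2, against 25.4% of all genes. In no member were the groups free of overlap (10.6% of all genes were). The differences of the other 8 members were between -0.64 and 0.23 on the log2 scale, 7 of the 9 were below 0, and the median was -0.04 against -0.00 over all genes. In bulk tissue, fewer cells of a type and less RNA per cell cannot be told apart.

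Cldn2, the cation and water channel, came closest. Its levels in Control-STAM-nonINS were 289.5, 294.0, 271.3 and 233.6 CPM, and those in Control-STAM-INS ran from 174.3 to 246.5 with a median of 191.0 CPM. The overlap was made by Control-STAM-nonINS replicate 4 and the highest 2 insulin-treated mice, and the other 4 insulin-treated mice lay below all mice without insulin. The log2 fold change was -0.42 ± 0.14 (SE; 95% CI -0.71 to -0.13), or 0.749-fold, with edgeR adjusted p = 0.0624 and an exact two-sided permutation p of 0.0190. Without Control-STAM-nonINS replicate 4 it was -0.48 (edgeR adjusted p = 0.0516), and without either library low in epithelial markers -0.48 (adjusted p = 0.0570). Cldn2 did pass the threshold in DESeq2 (adjusted p = 0.0469), in a fit of these 2 groups alone (edgeR adjusted p = 0.0382), in edgeR with library sizes set by the epithelial markers (-0.58, adjusted p = 0.0246) and in edgeR without Control-STAM-INS replicate 6 (adjusted p = 0.0457). Scaling by the epithelial markers moved the median of all genes by -0.20. Cldn2 was below 0 in all 26 alternative settings and passed the threshold in 6 of them. These 6 include a fit with the replicate number as a block and the fit without ieIRKO-STAM-INS replicate 6. Which side of 0.05 it fell on thus depended on the setting.

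Cldn15, the other channel-forming claudin, did not follow. It stood at 208.9, 289.3, 254.1 and 317.2 CPM without insulin and at 205.0 to 304.6 (median 255.9) CPM with insulin, and the ranges nearly coincided. The log2 fold change was -0.06 (95% CI -0.36 to 0.24, edgeR adjusted p = 0.851). Control-STAM-nonINS replicate 4, the lowest of its group in 7 of 9 members, was the highest in Cldn15.

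Cldn4 had the largest point difference and the largest error. Its levels were 139.7, 248.2, 341.3 and 51.1 CPM in Control-STAM-nonINS and 87.7 to 211.8 (median 109.1) CPM in Control-STAM-INS. The mice without insulin thus included both the highest and the lowest value of the 2 groups. The log2 fold change was -0.64 ± 0.43 (SE; 95% CI -1.56 to 0.27, edgeR adjusted p = 0.378), and it was -0.96 without Control-STAM-nonINS replicate 4 (adjusted p = 0.120) and -0.23 without replicate 3 of that group. Cldn7 lay the other way at 864.2, 1006.4, 984.5 and 577.6 CPM without insulin and 885.6 to 1136.4 (median 988.2) CPM with insulin. Its log2 fold change of 0.23 (95% CI -0.11 to 0.56, edgeR adjusted p = 0.403) was 0.08 without Control-STAM-nonINS replicate 4. Cldn3 differed by -0.02 (95% CI -0.31 to 0.27) on the log2 scale, with 395.6 to 511.6 CPM without insulin and 349.8 to 524.8 CPM with it.

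Occludin, JAM-A and the scaffolds differed little. Ocln was read at 107.9, 135.3, 142.2 and 120.3 CPM without insulin and at 107.1 to 132.2 (median 126.1) CPM with insulin, a log2 fold change of -0.04 (95% CI -0.32 to 0.23, edgeR adjusted p = 0.872). Tjp1 was read at 116.5, 118.6, 117.7 and 98.6 CPM without insulin and at 87.0 to 121.0 (median 105.5) CPM with insulin. Its log2 fold change was -0.10 (95% CI -0.37 to 0.17, edgeR adjusted p = 0.680). Neither interval reached below -0.37 or above 0.23 on the log2 scale. F11r differed by -0.03 (95% CI -0.29 to 0.24) and Cgn by 0.05 (95% CI -0.22 to 0.32). The signs of Cldn3, F11r, Cldn15, Ocln and Cgn each turned in at least 1 alternative setting.

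**Figure D2:**
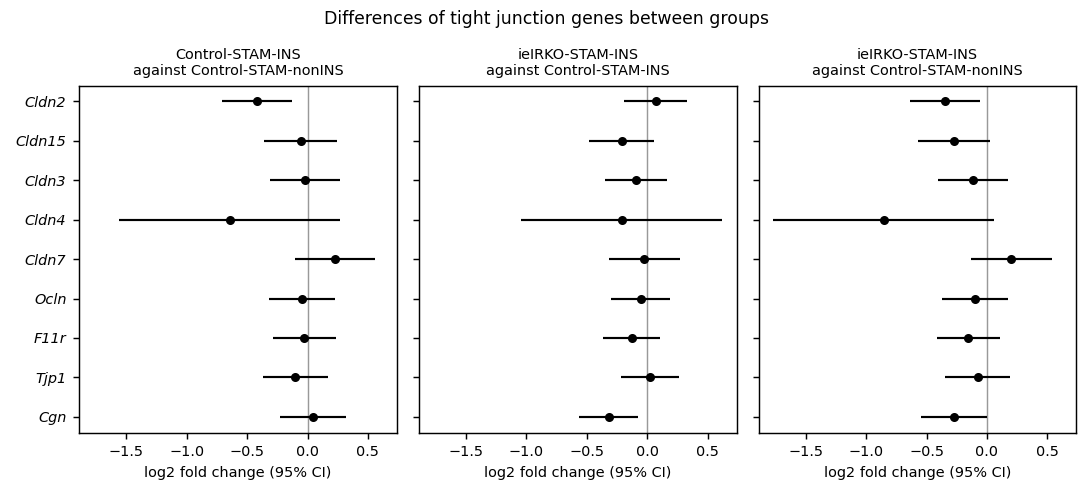
Log2 fold change (x axis) of each tight junction gene (y axis) in 3 comparisons, with 95% confidence intervals from edgeR; the vertical line marks no difference. The interval of Cldn2 lies below 0 in both comparisons with Control-STAM-nonINS, that of Cgn lies below 0 against Control-STAM-INS, and that of Cldn4 is the widest in each panel.

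The second comparison, ieIRKO-STAM-INS against Control-STAM-INS, asks what the labelled loss of the epithelial receptor changed among insulin-treated mice. None of the 9 members passed an adjusted p of 0.05, beside 0.223% of all genes. An unadjusted p under 0.05 was found for 1 member, Cgn, beside 11.3% of all genes, and no member's groups were free of overlap (0.845% of all genes), and DESeq2 called none either. The log2 fold changes of 7 members were below 0, and their median was -0.09 on the log2 scale against 0.02 over all genes.

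Cingulin, the scaffold protein at the cytoplasmic face, showed the clearest separation of the 9. Cgn ran from 223.2 to 289.0 (median 250.3) CPM in Control-STAM-INS and from 170.9 to 249.8 (median 204.2) CPM in ieIRKO-STAM-INS. Of the 6 mice labelled knockout, 5 lay below every insulin-treated control, and only replicate 6 reached the control range. The log2 fold change was -0.32 ± 0.12 (SE; 95% CI -0.56 to -0.08), or 0.801-fold, with edgeR adjusted p = 0.334 and an exact two-sided permutation p of 0.0130. Across 26 other settings it stayed between -0.39 and -0.19, and the lowest adjusted p was 0.211. It was -0.28 without ieIRKO-STAM-INS replicate 5 (adjusted p = 0.519), -0.30 without replicates 2 and 3 together (adjusted p = 0.751), and -0.19 with library sizes set by the epithelial markers (adjusted p = 0.596). That last scaling moved the median of all genes by 0.14. Paneth cell markers, of which 4 were measured, summed to 690 to 1267 CPM in ieIRKO-STAM-INS and to 2698 to 4474 CPM in Control-STAM-INS, with 2 of the 4 called lower. The 7 villus enterocyte markers summed to a median of 17945 CPM in ieIRKO-STAM-INS and 24174 CPM in Control-STAM-INS, and their median log2 fold change was -0.45 with none called. The part of either list in the Cgn values was not tested.

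The 5 claudins differed by less than their spread. Cldn15 ran from 205.0 to 304.6 (median 255.9) CPM in Control-STAM-INS and from 178.4 to 283.5 (median 216.3) CPM in ieIRKO-STAM-INS, a log2 fold change of -0.21 (95% CI -0.48 to 0.06, edgeR adjusted p = 0.557). Cldn2 ran from 174.1 to 296.0 (median 206.0) CPM in ieIRKO-STAM-INS and overlapped Control-STAM-INS fully. Its log2 fold change was 0.07 (95% CI -0.19 to 0.33), and it was -0.05 without ieIRKO-STAM-INS replicate 6, the mouse with the highest value. Cldn4 ran from 57.8 to 155.1 (median 111.8) CPM in ieIRKO-STAM-INS, with a log2 fold change of -0.21 (95% CI -1.04 to 0.62). Cldn3 differed by -0.09 (95% CI -0.35 to 0.16) and Cldn7 by -0.02 (95% CI -0.32 to 0.27) on the log2 scale. With library sizes set by the epithelial markers, Cldn3, Cldn7 and Ocln changed sign.

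Ocln ran from 79.5 to 140.3 (median 123.0) CPM in ieIRKO-STAM-INS, and its lowest value came from replicate 5, the library low in villus markers. Its log2 fold change was -0.06 (95% CI -0.30 to 0.19, edgeR adjusted p = 0.883) and became 0.03 without that library. Tjp1 ran from 81.0 to 130.8 (median 105.9) CPM, and replicate 5 was again the lowest. Its log2 fold change was 0.02 (95% CI -0.22 to 0.26, edgeR adjusted p = 0.960). F11r ran from 217.6 to 318.5 (median 252.5) CPM against 250.01 to 308.3 (median 290.5) CPM in Control-STAM-INS, a log2 fold change of -0.13 (95% CI -0.36 to 0.11, edgeR adjusted p = 0.697).

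The third comparison, ieIRKO-STAM-INS against Control-STAM-nonINS, differs in both genotype and insulin and shares its libraries with the other 2. None of the 9 members passed an adjusted p of 0.05, beside 13.3% of all genes. An unadjusted p under 0.05 was found for 1 member, Cldn2, beside 29.4% of all genes, and no member's groups were free of overlap (8.56% of all genes). In 8 members the log2 fold change was below 0, and the median was -0.15 against 0.01 over all genes. Cldn2 differed by -0.35 (95% CI -0.64 to -0.06, edgeR adjusted p = 0.101), beside -0.42 for insulin treatment in the control genotype. Of the 6 ieIRKO-STAM-INS mice, 5 lay below all 4 mice without insulin, and replicate 6, at 296.0 CPM, lay above them all. Without that mouse the log2 fold change was -0.46 and edgeR's adjusted p was 0.0184. Cldn2 passed the threshold in 2 of 26 other settings, this one and a fit with the replicate number as a block. Cldn4 differed by -0.86 (95% CI -1.77 to 0.06, edgeR adjusted p = 0.200), Cldn15 by -0.27 (95% CI -0.57 to 0.03, adjusted p = 0.216) and Cgn by -0.27 (95% CI -0.54 to 0.00, adjusted p = 0.172). When Control-STAM-nonINS replicate 4 was left out, Cldn4 (-1.17, edgeR adjusted p = 0.0444) and Cgn (-0.40, adjusted p = 0.0342) passed the threshold. Without replicate 4 and ieIRKO-STAM-INS replicate 5 together they did not (adjusted p = 0.0717 and 0.0593). Other libraries left out made the differences smaller, to -0.44 for Cldn4 without Control-STAM-nonINS replicate 3 and to -0.18 for Cgn without replicate 1 of that group. Cldn7 alone lay above 0, at 0.20 (95% CI -0.13 to 0.54), and it was 0.05 without Control-STAM-nonINS replicate 4.

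The make-up of the claudins was also described, as each claudin's share of the summed RPKM of the 5. Their sum was 1118 ± 208 RPKM without insulin, 1123 ± 121 RPKM in Control-STAM-INS and 1069 ± 168 RPKM in ieIRKO-STAM-INS (SD), with overlapping ranges. Cldn7 made up 34.5% to 42.6% (mean 39.2%) of it in Control-STAM-nonINS, 44.8% to 46.9% (mean 45.8%) in Control-STAM-INS and 43.6% to 50.7% (mean 47.3%) in ieIRKO-STAM-INS. The share of Cldn7 was therefore lower in each of the 4 mice without insulin than in all 12 treated mice. This contrast was picked after its values were seen, and it was not tested. The Cldn7 level itself overlapped between these mice. Over all genes, the levels of 4.86% did not overlap between the same 4 and 12 mice, which is a share of genes by level and not by such a ratio. Shares add up to a whole, so a higher Cldn7 share goes with lower shares of others. Cldn2 made up 7.44 ± 0.993% without insulin, 5.51 ± 1.01% in treated controls and 6.05 ± 0.961% in ieIRKO-STAM-INS (SD), and Cldn4 made up 8.98 ± 4.80%, 6.02 ± 1.77% and 5.42 ± 1.25%. Cldn3 stayed near the same share, at 32.7%, 31.7% and 31.3%.

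**Figure D3:**
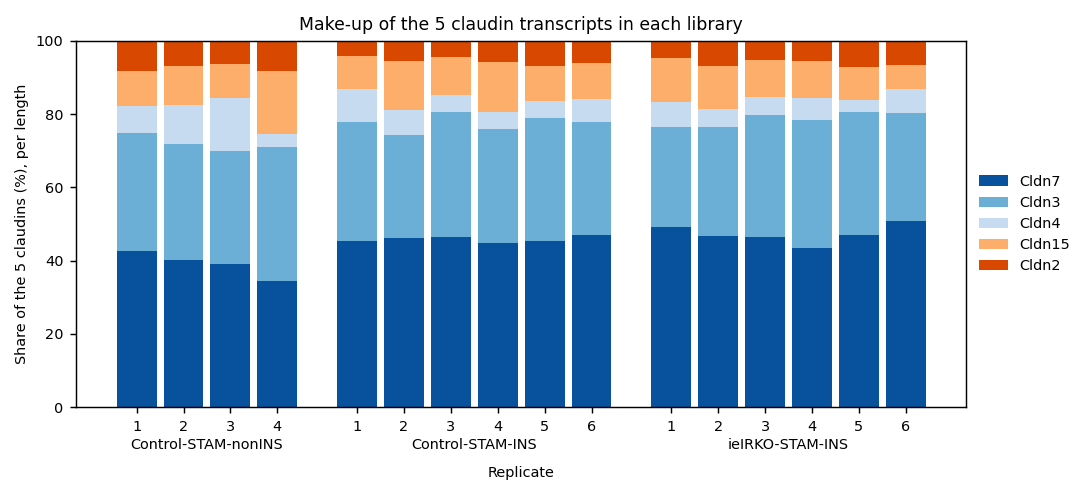
Share of each of 5 claudins in their summed RPKM (y axis, percent) in every library (x axis, replicate number within group). The darkest blue segment, Cldn7, ends below 43% in all 4 Control-STAM-nonINS libraries and above 43% in all 12 insulin-treated ones.

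From mouse to mouse, several members moved together. Correlations were taken over the 16 libraries after the group means were removed, and they describe libraries that share tissue composition and depth. Cldn7 and F11r had r = 0.90 (Spearman's coefficient 0.83), Cldn4 and F11r r = 0.90 (Spearman's 0.92) and Cldn4 and Cldn7 r = 0.88 (Spearman's 0.88). Without the 2 libraries farthest from the median these were 0.80, 0.86 and 0.81. The promoters of these 3 genes are those printed above. Cldn3 and Cldn4 are neighbors on chromosome 5, 39.3 kb apart, and had a lower r of 0.59. The 2 channel-forming claudins moved in opposite directions, with r = -0.57 (Spearman's -0.60) for Cldn2 and Cldn15 and -0.58 without the 2 farthest libraries. Cldn15 had no r above 0.31 with any other member.

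Cldn4 stood out by its spread. Its within-group SD of log2 CPM was 0.738, above that of 98.8% of 3870 genes with a mean of at least 50 CPM, whose median was 0.173. The other 8 members had SDs of 0.199 to 0.261. The 2 libraries low in epithelial markers held many of the lowest values. Control-STAM-nonINS replicate 4 was the lowest of its group in 7 of 9 members (all but Ocln and Cldn15), and ieIRKO-STAM-INS replicate 5 was the lowest of its group in 6 of 9.

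**Figure D4:**
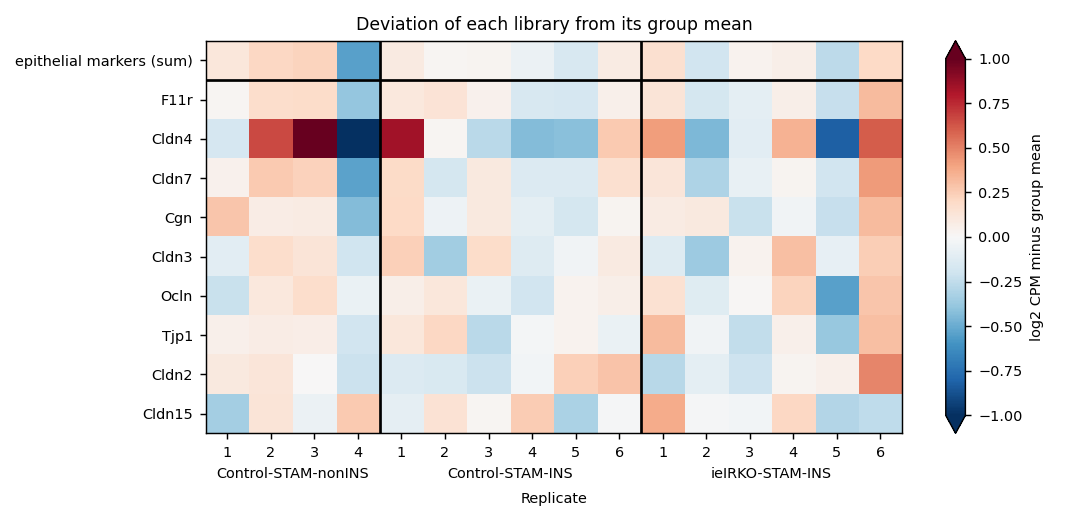
Deviation of each library from its group mean in log2 CPM (color scale, limited to -1 to 1) for the summed epithelial markers and 9 tight junction genes (rows) in 16 libraries (columns). Control-STAM-nonINS replicate 4 and ieIRKO-STAM-INS replicate 5 are low in the marker row and in most member rows, and Cldn2 and Cldn15 often carry opposite colors.

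The gene with the most similar pattern to each member, among all genes tested, was given by the same correlation over 16 libraries. For F11r it was Cdh1 (r = 0.94), the adherens junction cadherin, and for Ocln it was Nectin3 (r = 0.87), an adherens junction adhesion molecule. For Tjp1 it was Apc (r = 0.93), the Wnt pathway scaffold, and for Cldn2 it was Lss (r = 0.91), lanosterol synthase of the cholesterol pathway. Those of Cldn3, Cldn4, Cldn7, Cldn15 and Cgn were Dpp3 (r = 0.91), Nadk (0.94), Atp9a (0.94), H2-Bl (0.91) and Adm (0.94). None of these 9 closest genes was itself a member. Each r is the highest of 15267 genes over 16 libraries, and a shared role was not tested. Cdh1 is also 1 of the 10 epithelial markers used here.

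Beyond the 9 members, 79 other genes of the junction were listed by role, and 68 passed the filter. Insulin treatment in the control genotype gave 7 calls among them, 3 higher and 4 lower, which is 10.3% beside 10.5% of all genes, and 6 of the 7 are described here. Nectin3 rose from 90.4 to 127.2 CPM without insulin to 137.6 to 168.8 CPM with it, and the groups did not overlap (log2 fold change 0.52 ± 0.12 SE, edgeR adjusted p = 0.00953). Dsc2, a desmosomal cadherin, rose by 0.54 (adjusted p = 0.0330), and its call was lost in 7 of 26 other settings, which left out replicate 1, 3 or 4 of Control-STAM-nonINS or replicate 1, 2, 3 or 6 of Control-STAM-INS (adjusted p 0.0512 to 0.0841). The difference was 0.53 to 0.56 on the log2 scale in 6 of these 7 and 0.38 without Control-STAM-nonINS replicate 4. The polarity genes Prkci, the atypical protein kinase C of the Par complex, and Llgl1 fell by 0.40 (adjusted p = 0.00540) and 0.37 (adjusted p = 0.0122) on the log2 scale. Library sizes set by the epithelial markers lost the calls of Llgl1 (-0.56, edgeR adjusted p = 0.0561) and Nectin3 (0.35, adjusted p = 0.125). The Nectin1 call was lost too (-0.70, edgeR adjusted p = 0.0647). That scaling moved the median of all genes by -0.20. The larger differences of Llgl1 and Nectin1 than in the main analysis are to be read beside that move. Amotl1, an angiomotin scaffold, fell by 0.50 (adjusted p = 0.0149) and Nectin1 fell by 0.46 (adjusted p = 0.0438). Control-STAM-nonINS replicate 4 had the highest level of its group in both, 27.2 CPM for Amotl1 and 29.6 CPM for Nectin1. Without it the log2 fold changes were -0.42 (edgeR adjusted p = 0.0594) and -0.33 (adjusted p = 0.170), and the Nectin1 call was lost in 14 of 26 settings. The same library held 230 CPM of the 5 endothelial markers, against 93.0 to 133 CPM in the other 3 mice of its group and 88.3 to 124 CPM in Control-STAM-INS. Of these markers 2 of 5, Tie1 and Cdh5, were called lower with insulin, and the median over the 5 was -0.49 on the log2 scale. Their part in the Amotl1 and Nectin1 values was not tested. The adherens junction and desmosome list held 3 of these calls, of 16 measured, and pointed both ways.

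Among the same 68 genes the knockout label gave no call among insulin-treated mice in edgeR or DESeq2, and 1 gene, the nonmuscle myosin gene Myh14, had an unadjusted p under 0.05 (log2 fold change -0.29, edgeR adjusted p = 0.431). Over all genes, 0.223% were called and 11.3% had an unadjusted p under 0.05. Set against mice without insulin, ieIRKO-STAM-INS gave 4 calls, all lower, or 5.88% beside 13.3% of all genes. Prkci fell by 0.32 (edgeR adjusted p = 0.0181), Llgl1 by 0.31 (adjusted p = 0.0261) and Amotl1 by 0.51 (adjusted p = 0.0117). Of 26 other settings, 4 lost the call of Prkci, 6 that of Llgl1 and 2 that of Amotl1. Among these, Prkci was not called without Control-STAM-nonINS replicate 1 (-0.25, edgeR adjusted p = 0.0857), nor Llgl1 without replicate 2 (-0.27, adjusted p = 0.0722) or 3 (-0.31, adjusted p = 0.0541) of that group. With library sizes set by the epithelial markers all 3 were lost. The differences were then -0.37 for Prkci (edgeR adjusted p = 0.217), -0.36 for Llgl1 (adjusted p = 0.301) and -0.60 for Amotl1 (adjusted p = 0.132). That scaling moved the median of all genes by -0.06, and these larger differences are to be read beside that move. The fourth was Cldn23, a further claudin, which fell by 0.80 (adjusted p = 0.0290), from 33.9 to 72.0 CPM without insulin to 23.2 to 51.3 CPM, and its call was lost in 9 of 26 settings (log2 fold change -0.64 and adjusted p = 0.106 without Control-STAM-nonINS replicate 3). Markers of other cells moved in the same comparison. All 3 plasma cell markers were called higher, with sums of 700 to 1752 CPM without insulin and 1311 to 3080 CPM in ieIRKO-STAM-INS. The 7 villus enterocyte markers had a median log2 fold change of -0.53 with none called, and 1 of the 2 ileal genes was called lower (sums of 6626 to 9886 against 4332 to 7001 CPM). Of the endothelial markers 1 of 5 was called lower (median -0.34) and of the Paneth cell markers 1 of 4 (median -0.04). The Paneth cell markers summed to 2132 to 3685 CPM without insulin and to 690 to 1267 CPM in ieIRKO-STAM-INS. Called higher were 1 of 5 of the B cell markers (median 2.94) and 1 of 5 of those of follicle-associated epithelium (median 0.42). The part of all these markers in the 4 calls was not tested. Of the 17 other claudins listed, 6 passed the filter (Cldn1, Cldn5, Cldn8, Cldn10, Cldn12 and Cldn23), and the rest were too low to test. Lsr, the most abundant tricellular junction gene at 151 ± 22.2 RPKM without insulin, differed by -0.22 with insulin treatment (edgeR adjusted p = 0.216). The abundant scaffold Tjp3, which encodes ZO-3, differed by 0.21 (adjusted p = 0.229), and Cxadr, the most abundant of the other immunoglobulin-type junction genes with a length, differed by 0.02 (adjusted p = 0.954).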

How the data were processed

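Total RNA of the ileal whole wall of 16 mice was sequenced with a directional library kit. The authors aligned the reads to GRCm38 (mm10) with CLC Genomics Workbench 21.0.3 and deposited raw counts per gene for each mouse. The strand setting, the annotation and the treatment of reads with several matches are not given in the sources used here. Each mouse was mapped to its group by its label.

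The deposited counts were analyzed in R 4.3.3 with edgeR 4.0.16. The filter filterByExpr (minimum count 10, minimum total 15) left 15267 of 22872 genes with a count. TMM scaling and a robust quasi-likelihood fit of the 3 group means over all 16 libraries gave fold changes, and p-values were adjusted by the Benjamini-Hochberg method over all genes tested. Intervals of 95% used the t quantile of the fit. Single members were also tested by exact two-sided permutation on log2 CPM with a prior count of 2, over all arrangements of the 2 groups. RPKM used the merged exon length of a GENCODE annotation of GRCm38. Depth was 13288018 to 22215382 reads per library. The 36 pairs of libraries within groups differed by more than sampling noise (chi-square per degree of freedom 15.8 to 119), so none was a duplicate. Cldn3 shares 40 exonic bases with the antisense gene Wbscr25, which had at most 8 counts. The scripts were tested on simulated data.

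The members and lists were chosen with earlier results of these data known. All 9 members were named, together with Insr, called genes of the other junction lists (at most 8 per comparison; 1 call of the insulin comparison is not reported here), otherwise the most abundant genes per length of a list, and the closest gene by pattern. Of the marker lists, the pancreatic acinar list had 1 of 5 genes past the filter, with a sum of 3.12 to 9.23 CPM. The alternatives were DESeq2 1.42.0, other normalizations and filters, fewer groups, a replicate block, another prior count, and leaving out libraries. Leaving out Control-STAM-nonINS replicate 4 and ieIRKO-STAM-INS replicate 5 together was chosen after seeing the data. Promoters are from RefSeq (GRCm38.p6), in which all 9 members were found. Figures were drawn with matplotlib 3.10.9.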

Additional observations from a re-analysis of the deposited data

Results flagged for a closer look

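Of 30 groups of levels examined for a sample far from the others, 1 was flagged, where chance alone gives about 1.5. Tjp1 in Control-STAM-nonINS replicate 4 was the lowest of its group at 98.6 CPM, and its gap to the nearest other mouse (116.5 CPM) was 0.904 of the range of the group on log2 values. The same library had the lowest epithelial marker sum of its group, 10178 CPM, and the part of that sum in the Tjp1 value was not tested.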

How the results depend on the processing

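In the main analysis no member was called. In the insulin comparison (Control-STAM-INS against mice without insulin), 1 member, Cldn2, was called with DESeq2, with library sizes from epithelial markers, with the replicate block and with only the 2 groups compared, and 0 to 1 were called when single libraries were left out. In the knockout comparison (ieIRKO-STAM-INS against treated controls) no setting gave a call. In the third comparison 1 member was called with the replicate block (Cldn2) and 0 to 2 when single libraries were left out (Cldn2 without ieIRKO-STAM-INS replicate 6, Cldn4 and Cgn without Control-STAM-nonINS replicate 4). Deviations of 14 same-numbered pairs of libraries correlated at -0.21 to 0.45, 9 of them above 0.1, and 5 were best with their own number. No range for differently numbered pairs was taken, so these values cannot tell whether the replicate numbers pair the mice. With the block, Cldn2 differed by -0.56 (edgeR adjusted p = 0.00573) in the insulin comparison and by -0.50 (adjusted p = 0.00882) in the third. Another prior count changed no call by permutation.

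Signs turned for differences near 0. In the insulin comparison, upper-quartile normalization gave Cldn3 0.0061 and F11r 0.0021, epithelial scaling gave Cgn -0.10, the replicate block gave Cldn15 0.054, and leaving out both libraries low in epithelial markers gave Cldn15 0.044 and Cgn -0.067. In the knockout comparison, epithelial scaling gave Ocln 0.055, Cldn3 0.031 and Cldn7 0.10, leaving out replicates 2 and 3 gave Cldn7 0.062, and leaving out both low libraries gave Ocln 0.032 and Cldn7 0.013. In the third, leaving out replicates 2 and 3 gave Tjp1 0.00064. Single libraries left out gave, in the insulin comparison, -0.11 to 0.022 for Ocln, -0.084 to 0.047 for Cldn3, -0.16 to 0.036 for Cldn15, -0.14 to 0.041 for F11r and -0.076 to 0.15 for Cgn, and in the knockout comparison -0.11 to 0.034 for Ocln, -0.044 to 0.089 for Tjp1, -0.045 to 0.13 for Cldn2, -0.34 to 0.0079 for Cldn4 and -0.12 to 0.034 for Cldn7. The cause was not tested.

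Among the other junction genes, the 7 calls of the insulin comparison became 4 to 8 with single libraries left out. With epithelial scaling there were again 7, of which 3 were shared, and in the third comparison 3, of which 1 was shared. The 4 calls of the third became 8 with DESeq2, 2 with only the 2 groups, 2 without ieIRKO-STAM-INS replicates 2 and 3, and 2 to 8 with single libraries left out. Over all genes, 1602 calls of the insulin comparison fell to 824 without Control-STAM-nonINS replicate 1, 34 of the knockout comparison rose to 123 with DESeq2, and 2036 of the third fell to 789 with epithelial scaling, where the median of all genes moved by -0.06.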
